A study of Mus musculus with 11 samples.

Results

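The genes described here make, break down or read retinoic acid: Cyp26b1 for breakdown, Aldh1a1 for synthesis, and the nuclear receptor genes Rara, Rarb, Rarg, Rxra and Rxrb. They were taken by gene symbol, 7 of the 54347 genes in the deposited count table, and all 7 were found. RNA was sequenced from bone marrow cells of 4 female C57BL/6NTac mice, wild type for the surface sialomucin endomucin (EMCN), with no age in the labels used here and no treatment named. Long-term haematopoietic stem cells (LT-HSCs) were sorted from lineage-depleted marrow as CD150+CD48- cells with Sca-1 and c-Kit and parted by EMCN, which gave 4 EMCN+ and 3 EMCN- libraries from 3000 to 5000 cells each. Another EMCN- library was set aside by the submitters because its sequencing quality was poor, and the EMCN- libraries used here are of mice 1, 2 and 4. Granulocyte-monocyte progenitors (GMPs), which have left the stem cell state, were sorted from the same animals and gave 4 libraries.

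Retinoic acid is made from vitamin A in successive oxidations, the last of them by retinaldehyde dehydrogenases such as ALDH1A1, and CYP26 enzymes oxidise it to inactive products. Inside the nucleus it binds retinoic acid receptors (RARs), which sit on DNA as pairs with retinoid X receptors (RXRs) and hold target genes down or switch them on depending on the ligand. In bone marrow, retinoic acid is known to drive myeloid progenitors towards granulocytes, and signalling through it is known to bear on stem cell dormancy.

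Totals ranged from 3.63 to 11.1 M (mega) estimated counts per library. Levels are given as CPM, counts per M counts, after TMM scaling, on which 1 count was worth 0.0697 to 0.235 CPM. The labelled cell types were carried by their markers: the summed level of 10 LT-HSC markers was 1238 to 1451 CPM in EMCN+ LT-HSCs, 848 to 987 CPM in EMCN- LT-HSCs and 28.5 to 32.2 CPM in GMPs, and that of 10 GMP markers was 15757 to 18983 CPM in GMPs against at most 34.1 CPM in LT-HSCs. Emcn itself averaged 26.2 ± 1.37 CPM (SD, n = 4) in EMCN+ LT-HSCs, 14.4 ± 1.76 CPM (n = 3) in EMCN- LT-HSCs and 0.521 ± 0.611 CPM (n = 4) in GMPs. In a bulk library a higher level can come from more cells that express a gene or from more RNA per cell, and these cannot be told apart.

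Cyp26b1 rose in EMCN+ over EMCN- LT-HSCs, and no other gene of the 7 passed the test there. The means of all 5 receptor genes were higher in EMCN+ cells, that of Rxrb by 0.01 on the log2 scale, a sign that turned in limma-voom and in both blocked fits, and that of Aldh1a1 was lower, and none of these differences passed the threshold of 0.05 on the adjusted p. Throughout, a gene was called when its adjusted p, from edgeR's quasi-likelihood test with Benjamini-Hochberg adjustment over 14915 genes, was under 0.05. So 1 of 7 genes was called higher, where 0.771% of all tested genes were, and 0 of 7 were called lower, where 1.19% of all were. The 7 genes were chosen with the rise of Cyp26b1 in these data known, so this count is a description and no test. Against GMPs, 6 of 7 were called higher in EMCN+ LT-HSCs, a side that held 31.9% of all tested genes, and 0 of 7 lower, with 29.4% of all genes. In EMCN- LT-HSCs against GMPs 6 of 7 were higher and 0 of 7 lower, against 28.3% and 24.4% of all genes. Both comparisons use the same 4 GMP libraries. How often genes at large have one sign in all 3 mice, or LT-HSC groups that do not overlap, was not counted. Such remarks below describe single genes. All 7 genes passed the filter on low counts. Cyp26b1, Rarb, Rxra and Aldh1a1 reached it in fewer than 3 GMP libraries and so passed through the LT-HSCs. Their calls and adjusted p against GMPs, and the count of calls, are thus a description.

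**Figure D1:**
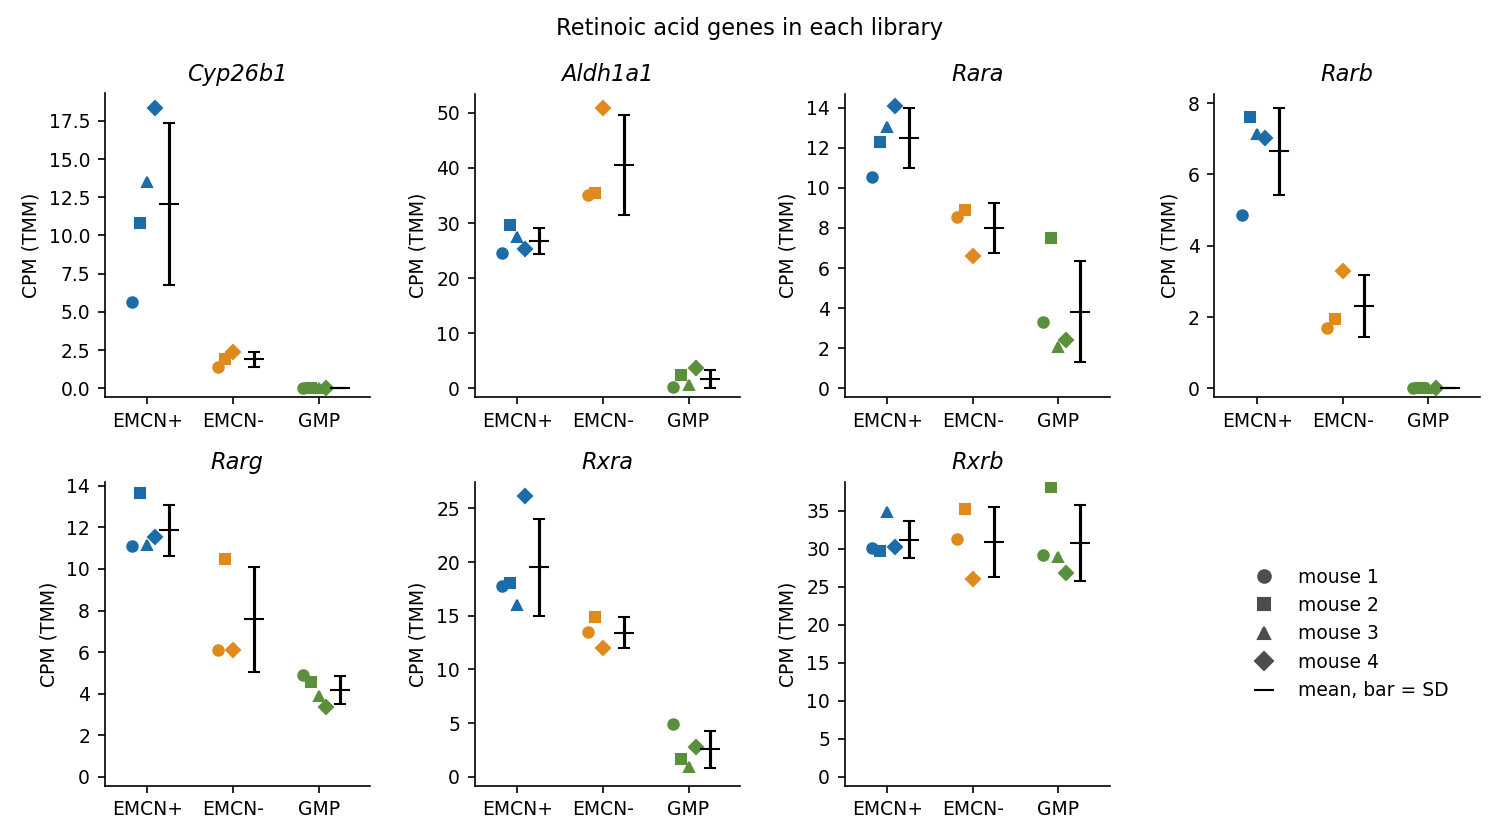
Level of each gene in each of the 11 libraries, as TMM-scaled CPM (vertical axis, linear, a different range in each panel), by population; marker shapes give the mouse, and the bar beside each group is the mean with its SD. Cyp26b1 and Rarb were at 0 in all 4 GMP libraries, and Rxrb lay between 26.1 and 38.2 CPM in all 11 libraries.

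Cyp26b1 (ENSMUSG00000063415.12; GRCm38 chromosome 6, 84571414 to 84593908, minus strand) encodes the cytochrome P450 that clears retinoic acid in many tissues outside the liver. In EMCN+ LT-HSCs it was at 5.66, 10.8, 13.5 and 18.4 CPM in mice 1, 2, 3 and 4, from 57, 155, 121 and 94 counts. In EMCN- LT-HSCs it was at 1.38, 1.94 and 2.35 CPM in mice 1, 2 and 4, from 9, 12 and 10 counts. The lowest EMCN+ library, that of mouse 1, lay above the highest EMCN- library, and the EMCN+ libraries were spread more widely than those of EMCN- cells. The fitted difference was 2.68 ± 0.44 on the log2 scale (± SE), a 6.39-fold higher level, with an adjusted p of 0.00475 by edgeR. The gene was chosen with this rise in these data already known.

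Within each animal the sign was the same. Mouse 1 had a log2 difference of 1.84, mouse 2 of 2.32 and mouse 4 of 2.83, so the EMCN+ library was the higher in 3 of 3 mice. These values use log2 CPM with a prior count of 2 and so lie below the ratios of the CPM given above. The call was made under all 21 alternative analyses run, with adjusted p from 1.3e-07 to 0.0492 and log2 differences from 2.41 to 2.92. The highest adjusted p came from the fit without the EMCN- library of mouse 1.

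In GMPs no count fell on Cyp26b1 in any of the 4 libraries. The folds were set against 3 counts over the whole GMP group, a limit for a 0 that covers counting error only. On that scale Cyp26b1 was 82.1-fold higher in EMCN+ LT-HSCs and 13.5-fold higher in EMCN- LT-HSCs. Libraries of a group differed beyond counting error, so these folds are no firm lower bounds. Both differences were called, a description for a gene that passed the low-count filter only through LT-HSCs. The level was highest in EMCN+ cells, lower in EMCN- cells and lowest in GMPs, with no overlap between neighbours. The other genes of the CYP26 family stayed near 0: Cyp26a1 had 2, 0 and 0 counts in EMCN+ LT-HSCs, EMCN- LT-HSCs and GMPs, and Cyp26c1 had 10, 2 and 11, too few for either to be tested.

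Markers of several cell types were set beside the Cyp26b1 difference. Between the fractions, 4 of 10 LT-HSC markers (Procr, Mecom, Fgd5 and Mllt3) were called higher in EMCN+ cells and 0 lower, and 1 of 10 GMP markers, Cd48, was called lower and 0 higher. Of all tested genes, 0.771% were called higher and 1.19% lower in this comparison. Endothelial cells are also known to carry EMCN. The summed level of 10 endothelial markers was 192 to 267 CPM in EMCN+ LT-HSCs, 108 to 130 CPM in EMCN- LT-HSCs and 63.0 to 80.6 CPM in GMPs. This list holds Emcn itself and Vwf, which LT-HSCs also express and which was at 129 ± 32.8 CPM (SD, n = 4) with EMCN and 49.8 ± 4.42 CPM (n = 3) without it. Of 7 endothelial markers tested, Vwf was the 1 called higher in EMCN+ cells and 0 were lower. Without Emcn and Vwf the other 8 summed to 59.5 ± 3.46 CPM (SD, n = 4) in EMCN+ LT-HSCs, 55.2 ± 5.50 CPM (n = 3) in EMCN- LT-HSCs and 68.8 ± 6.68 CPM (n = 4) in GMPs, with overlapping LT-HSC libraries. Cdh5, the cadherin of endothelial junctions, was at 0.806 ± 0.186 CPM (SD, n = 4) in the EMCN+ fraction and 0.180 ± 0.160 CPM (n = 3) in the EMCN- fraction. Cldn5, a claudin of the same junctions, had 7 to 16 counts in each EMCN+ library and 0 in every EMCN- and GMP library. Pecam1, found on endothelium and on stem cells, was at 46.0 ± 3.88 CPM (SD, n = 4) and 48.2 ± 5.13 CPM (n = 3) in the EMCN+ and EMCN- fractions. It made up most of the sum of the other 8. Kdr was at 8.11 ± 1.59 and 4.56 ± 0.402 CPM and Flt4 at 1.71 ± 0.539 and 0.543 ± 0.459 CPM in the same order. Both were higher in every EMCN+ library than in any EMCN- library. Plvap went the other way, at 0.181 ± 0.220 and 0.506 ± 0.542 CPM, with overlap. Stab2 and Ly6c1 overlapped too. Cdh5, Cldn5 and Plvap were too low to be tested. The part of these markers in the Cyp26b1 difference was not tested.

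**Figure D2:**
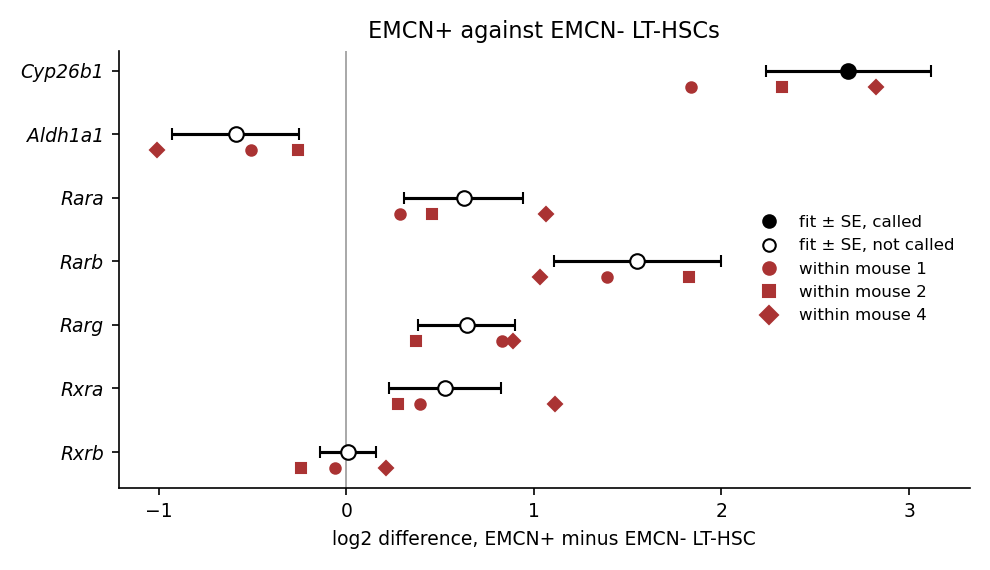
Difference between EMCN+ and EMCN- LT-HSCs for each gene on the log2 scale (horizontal axis), with the fitted value and its SE in black and the difference within each of the 3 mice that have both libraries in red below it. The red values use log2 CPM with a prior count of 2. Cyp26b1 at 2.68 is the gene called. Rara, Rarb, Rarg, Rxra and Aldh1a1 lie on one side of 0 in all 3 mice without passing the test, and Rxrb does not. The share of all genes with one sign in all 3 mice was not counted.

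Aldh1a1 (ENSMUSG00000053279.8; chromosome 19, 20492715 to 20643465, plus strand) encodes a cytosolic retinaldehyde dehydrogenase, whose activity is widely used to sort stem cells. In EMCN+ LT-HSCs it was at 24.5, 29.6, 27.5 and 25.2 CPM in mice 1 to 4, and in EMCN- LT-HSCs at 35.0, 35.5 and 51.0 CPM in mice 1, 2 and 4. Every EMCN- library lay above every EMCN+ library, the opposite order to Cyp26b1, with the mouse 4 library highest. The difference was -0.59 ± 0.34 (log2, EMCN+ minus EMCN-) and did not pass the test (adjusted p = 0.493 by edgeR). In a fit blocked by mouse over the 6 libraries of mice 1, 2 and 4, which leaves out the EMCN+ library of mouse 3, the difference was -0.59 with an adjusted p of 0.0201, the single one of 21 alternatives to call it. That fit called 908 of 13435 genes.

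GMPs held little Aldh1a1, at 0.158, 2.45, 0.683 and 3.73 CPM in mice 1 to 4. All 7 LT-HSC libraries lay above all 4 GMP libraries. Aldh1a1 was higher than in GMPs by 3.92 ± 0.44 on the log2 scale in EMCN+ LT-HSCs (15.1-fold, adjusted p = 1.2e-05 by edgeR) and by 4.51 ± 0.45 in EMCN- LT-HSCs (22.7-fold, adjusted p = 6.53e-06). The size moved with single GMP libraries: without that of mouse 4 the differences were 4.55 and 5.14, and without that of mouse 1 they were 3.49 and 4.08. They were 4.57 and 5.10 in limma-voom. Aldh1a7, a gene of similar sequence with which reads can be shared, had 7, 7 and 1 counts in EMCN+ LT-HSCs, EMCN- LT-HSCs and GMPs. Aldh1a1 had 1048, 666 and 39, and how reads were split between these genes is uncertain. Aldh1a2, another retinaldehyde dehydrogenase gene, had 7, 0 and 2 counts in the same order.

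Rarb (ENSMUSG00000017491.9; chromosome 14, 16430839 to 16819156, minus strand) encodes RAR beta and is itself a classical target of retinoic acid. Receptor pairs bind direct repeats of a short half-site, so 14 promoter windows of the 7 genes, each from 250 bases before to 50 after a RefSeq start on GRCm38.p6, were searched for them. The search took a half-site with the letters AGGTCA or AGTTCA or GGGTCA or GGTTCA, repeated in the same orientation with a gap of 1, 2 or 5 bases, on both strands, overlaps allowed. A match stood in 1 of the 14 windows, that of Rarb, with a gap of 5 bases. It lies at chr14:16575513-16575529 on the minus strand, from base -53 to base -37 relative to the start, and is shown because Rarb is the receptor gene with the widest difference between the fractions. The sequence below spans chr14:16575507-16575535, 5′ to 3′ on the minus strand, with both half-sites in capitals.
Rarb promoter: gggaagGGTTCAccgaaAGTTCActcgca
Of 32851 RefSeq windows of the same length, 0.0974% held a repeat with a gap of 5, 0.268% one with a gap of 2 and 0.222% one with a gap of 1. The match describes these letters, and the absence of one in the other 13 windows says nothing of binding.

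In EMCN+ LT-HSCs Rarb was at 4.86, 7.60, 7.13 and 7.04 CPM in mice 1 to 4, from 36 to 109 counts. In EMCN- LT-HSCs it was at 1.68, 1.94 and 3.29 CPM in mice 1, 2 and 4, from 11 to 14 counts. The fractions did not overlap, and mouse 4 had the highest EMCN- level. The difference was 1.55 ± 0.45 (log2), or 2.93-fold, with an adjusted p of 0.0916 by edgeR, so it was not called. Within mice 1, 2 and 4 it was 1.39, 1.83 and 1.03, on log2 CPM with a prior count of 2.

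The call depended on the analysis: 4 of 21 alternatives called Rarb, with adjusted p of 0.0253 in DESeq2, 0.0355 in limma-voom, 0.0316 when the 2 LT-HSC groups were fitted alone and 0.0158 in the blocked fit of mice 1, 2 and 4. With the block in all 11 libraries the adjusted p was 0.116, and over all alternatives it reached 0.349, without the EMCN- library of mouse 1. GMPs had 0 counts of Rarb in all 4 libraries. Against 3 counts over the GMP group, Rarb was 49.6-fold higher in EMCN+ LT-HSCs and 16.1-fold higher in EMCN- LT-HSCs, again no firm lower bounds. Both differences were called, but Rarb too passed the low-count filter only through LT-HSCs, so the calls describe it. Exons of Rarb share 1793 bases with Top2b, the gene of a DNA topoisomerase on the other strand, and the strand setting of the counting was not given. In GMPs Top2b had 743 to 1177 counts per library while Rarb had 0. Top2b was at 257 ± 23.0 CPM (SD, n = 4) in the EMCN+ fraction and 253 ± 27.7 CPM (n = 3) in the EMCN- fraction.

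Rara (ENSMUSG00000037992.16; chromosome 11, 98927818 to 98974942, plus strand) encodes RAR alpha, the receptor known from its fusion to PML in promyelocytic leukaemia. It was at 10.5, 12.3, 13.0 and 14.1 CPM in EMCN+ LT-HSCs of mice 1 to 4 and at 8.57, 8.88 and 6.58 CPM in EMCN- LT-HSCs of mice 1, 2 and 4. GMPs had 3.31, 7.51, 2.05 and 2.43 CPM, with mouse 2 apart from the other three and inside the range of the EMCN- libraries. The LT-HSC fractions did not overlap, but their difference of 0.63 ± 0.32 (log2) was not called (adjusted p = 0.398 by edgeR), with EMCN+ the higher in 3 of 3 mice. Against GMPs Rara was higher by 1.67 ± 0.31 in EMCN+ LT-HSCs (3.18-fold, adjusted p = 9.08e-05) and by 1.04 ± 0.34 in EMCN- LT-HSCs (2.06-fold, adjusted p = 0.0137). The second call was lost without the EMCN- library of mouse 2 (adjusted p = 0.0578). Over the 21 alternatives the first difference ran from 1.48 to 2.51 and the second from 0.852 to 1.78. Without the GMP library of mouse 2 the first was 2.23.

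Rarg (ENSMUSG00000001288.15; chromosome 15, 102234938 to 102257517, minus strand) encodes RAR gamma, known from mouse knockouts for a part in keeping stem cells. It was at 11.1, 13.7, 11.1 and 11.5 CPM in EMCN+ LT-HSCs of mice 1 to 4. In EMCN- LT-HSCs of mice 1, 2 and 4 it was at 6.12, 10.5 and 6.11 CPM, so mouse 2 was the highest in both fractions. GMPs had 4.89, 4.57, 3.87 and 3.36 CPM, below every LT-HSC library. The difference between the fractions was 0.64 ± 0.26 (log2, adjusted p = 0.249 by edgeR) and was not called, with EMCN+ the higher in 3 of 3 mice. Rarg was higher than in GMPs by 1.50 ± 0.25 in EMCN+ LT-HSCs (2.83-fold, adjusted p = 2.29e-05) and by 0.86 ± 0.27 in EMCN- LT-HSCs (1.81-fold, adjusted p = 0.0118). The EMCN- call was lost without the EMCN- library of mouse 2 (adjusted p = 0.169), with mouse as a block in complete pairs (0.0762) and with libraries thinned to the smallest total (0.118).

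Rxra (ENSMUSG00000015846.15; chromosome 2, 27676440 to 27762957, plus strand) encodes RXR alpha, a partner that RARs share with the vitamin D, thyroid hormone and PPAR receptors. It was at 17.8, 18.1, 16.0 and 26.2 CPM in EMCN+ LT-HSCs of mice 1 to 4, at 13.5, 14.9 and 12.0 CPM in EMCN- LT-HSCs of mice 1, 2 and 4, and at 4.89, 1.63, 0.911 and 2.80 CPM in GMPs. The 3 populations did not overlap. The fractions differed by 0.52 ± 0.30 (log2, adjusted p = 0.461 by edgeR), which was not called, with EMCN+ the higher in 3 of 3 mice. Against GMPs Rxra was higher by 2.87 ± 0.32 in EMCN+ LT-HSCs (7.30-fold, adjusted p = 2.89e-07) and by 2.34 ± 0.34 in EMCN- LT-HSCs (5.07-fold, adjusted p = 1.17e-05).

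Rxrb (ENSMUSG00000039656.17; chromosome 17, 34031812 to 34038399, plus strand) encodes RXR beta, the broadly expressed form. It was at 30.1, 29.7, 34.9 and 30.3 CPM in EMCN+ LT-HSCs, 31.4, 35.2 and 26.1 CPM in EMCN- LT-HSCs and 29.2, 38.2, 28.9 and 26.9 CPM in GMPs, so all groups overlapped. The log2 differences were 0.01 ± 0.15 between the fractions (adjusted p = 0.986 by edgeR), 0.02 ± 0.14 for EMCN+ LT-HSCs against GMPs (adjusted p = 0.922) and 0.01 ± 0.15 for EMCN- LT-HSCs against GMPs (adjusted p = 0.973). None was called, and an SE of this size does not show that the levels are alike. Total-count scaling moved the median of all genes to 0.86 and 0.75 (log2) in the comparisons with GMPs, and Rxrb to 0.85 and 0.73, so relative to the median it stayed near 0. Under that scaling Rxrb was called higher than in GMPs in both fractions (adjusted p = 9.85e-06 and 0.000226 by edgeR). It was the 1 of 21 alternatives to call Rxrb in each comparison.

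Compared per kilobase of exon, which lets genes be set roughly beside each other, the order of the 7 differed between the populations. The length takes in the exons of all annotated transcripts of a gene, and which of them were expressed was not tested. The order and the receptor shares that follow rest on that length. In EMCN+ LT-HSCs Rxrb led with 7.86 ± 0.612 CPM per kilobase (SD, n = 4), Aldh1a1 followed with 5.41 ± 0.471, and these were apart from each other and from the rest. Below them came Rxra (3.57 ± 0.831), Rara (2.86 ± 0.343), Rarg (2.78 ± 0.286), Cyp26b1 (2.26 ± 0.991) and Rarb (1.26 ± 0.232), each overlapping the next. In EMCN- LT-HSCs Aldh1a1 (8.21 ± 1.84, n = 3) and Rxrb (7.77 ± 1.15) overlapped at the top. Cyp26b1 came last there at 0.353 ± 0.0912, overlapping with Rarb at 0.437 ± 0.164 CPM per kilobase. In GMPs Rxrb stood alone at 7.75 ± 1.27 (n = 4), the next gene being Rarg at 0.979 ± 0.162 CPM per kilobase.

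The 3 RAR genes together summed to 6.91 ± 0.675 CPM per kilobase (SD, n = 4) in EMCN+ LT-HSCs, 4.05 ± 0.711 (n = 3) in EMCN- LT-HSCs and 1.86 ± 0.676 (n = 4) in GMPs. Sums of the RXR genes were closer, at 11.4 ± 0.775, 10.3 ± 1.45 and 8.22 ± 1.20 CPM per kilobase. Rarb made up 18.2 ± 1.85% of the RAR sum in EMCN+ LT-HSCs, 11.2 ± 5.45% in EMCN- LT-HSCs and 0% in GMPs, while Rara and Rarg split the rest. Rxra made up 31.1 ± 5.58%, 24.0 ± 0.874% and 5.78 ± 4.01% of the RXR sum in the same order. Nearly all of the remainder was Rxrb, at 68.8%, 75.8% and 94.2%, and Rxrg, the third RXR gene, had 1 count in each of 2 libraries.

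**Figure D3:**
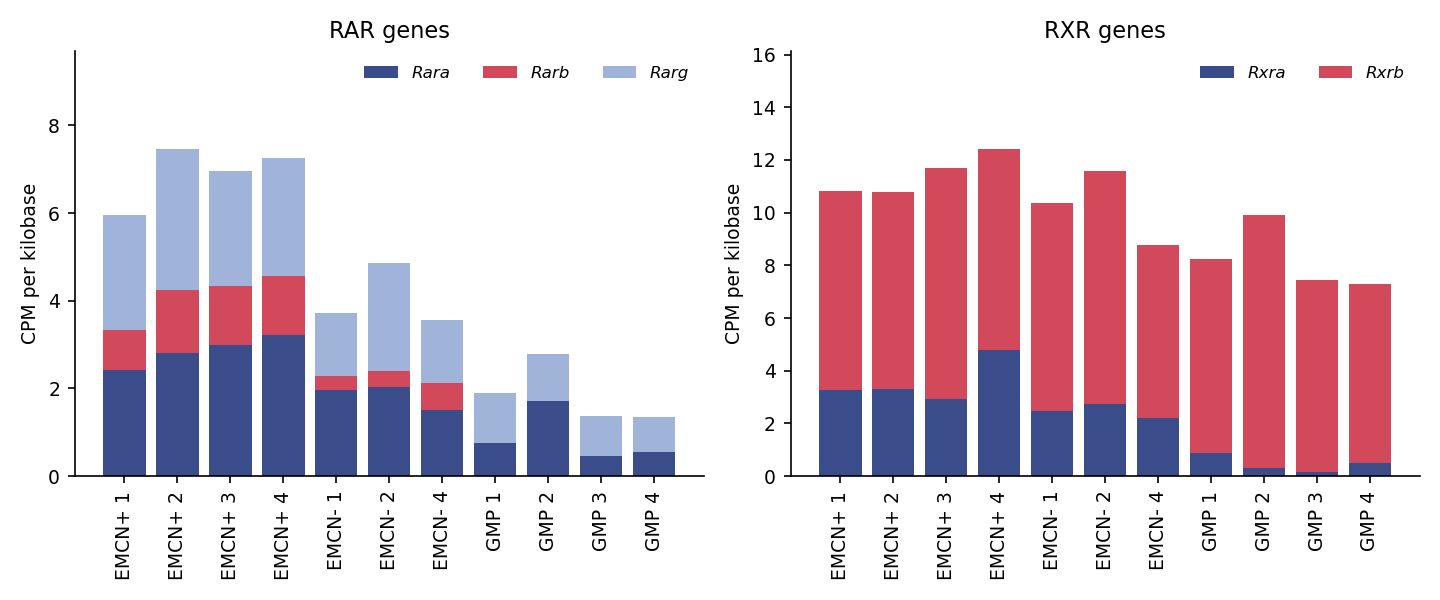
Receptor genes in each of the 11 libraries, stacked, in TMM-scaled CPM per kilobase of exon (vertical axes from 0), with the 3 RAR genes on the left and Rxra and Rxrb on the right; labels give the population and mouse. Rarb is absent from the GMP bars, and Rxra narrows from a mean of 31.1% of the RXR sum in EMCN+ LT-HSCs to 5.78% in GMPs.

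Over the 7 LT-HSC libraries the log2 CPM of Cyp26b1 and Rarb had a Pearson r of 0.958. Both were lowest in mouse 1 among the EMCN+ libraries and rose from mouse 1 to 2 to 4 in EMCN- cells. In EMCN+ libraries of mice 2, 3 and 4 Cyp26b1 rose (10.8, 13.5 and 18.4 CPM) while Rarb fell (7.60, 7.13 and 7.04 CPM). Cyp26b1 had an r of 0.895 with Rara, 0.805 with Rxra, 0.757 with Rarg, 0.0764 with Rxrb and -0.707 with Aldh1a1. The lowest r among all pairs was -0.891, between Rara and Aldh1a1. These values describe 7 libraries that fall in 2 fractions and share library depth and scaling, so the split itself enters each of them.

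Genes most like each member over all 11 libraries, by Pearson r of log2 CPM, were Zcchc2 (0.990), Sult1a1 (0.987) and Ncam2 (0.985) for Cyp26b1. For Rarb they were Kiz (0.995), Slc17a8 (0.995) and Ncam2 (0.994), so Ncam2, a neural cell adhesion gene, stood in both lists. Smad3, a transducer of TGF beta signals, came first for Rxra (0.994), Arid3b for Rara (0.956), Znfx1 for Rarg (0.980), Trim3 for Aldh1a1 (0.985) and Lrrc61 for Rxrb (0.854). Within the 7 LT-HSC libraries the genes most like Cyp26b1 were Ryk (0.990), Neto2 (0.990) and Ocrl (0.988). The choice was made among 9945 genes, or 9861 in LT-HSCs, so high values are found by selection.

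The other genes of retinoid handling were taken from lists. For retinoic acid metabolism 11 of 28 genes could be tested, and 0 were called in either direction between the LT-HSC fractions, with a median difference of -0.09 (log2) against 0 for all genes tested. Of all tested genes, 0.771% were called higher and 1.19% lower between these fractions. Rdh10, which makes retinaldehyde from retinol, had the smallest p there, with means of 8.23 CPM (EMCN+) and 4.94 CPM (EMCN-) and a difference of 0.75 ± 0.43 (adjusted p = 0.467 by edgeR). Dhrs3, which turns retinaldehyde back to retinol, differed by -0.60 ± 0.35 (adjusted p = 0.467).

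Against GMPs, EMCN+ LT-HSCs had 5 of these 11 genes higher and 4 lower (median 0.35, all genes 0.04), and EMCN- LT-HSCs 4 higher and 1 lower (median 0.33, all genes 0.03). The shares over all tested genes were 31.9% higher and 29.4% lower in EMCN+ LT-HSCs and 28.3% and 24.4% in EMCN- LT-HSCs. Rdh10 was higher by 1.67 ± 0.42 in EMCN+ LT-HSCs (adjusted p = 0.00181 by edgeR), and its difference of 0.92 ± 0.47 in EMCN- LT-HSCs was not called (adjusted p = 0.107). Bco2, a carotenoid-cleaving oxygenase, was higher by 2.61 ± 0.69 and 2.30 ± 0.75 in the EMCN+ and EMCN- fractions (adjusted p = 0.00267 and 0.0134), though without the EMCN- library of mouse 2 the second was at an adjusted p of 0.0501. Without the GMP library of mouse 4 these differences were 3.20 and 2.89. Aldh1a3, a retinaldehyde dehydrogenase like Aldh1a1, went the other way: it was at 0.429 ± 0.301 CPM (SD, n = 4) in EMCN+ LT-HSCs, 1.02 ± 1.36 CPM (n = 3) in EMCN- LT-HSCs and 6.85 ± 3.76 CPM (n = 4) in GMPs. Its differences from GMPs were -4.10 ± 0.73 and -2.89 ± 0.77 (adjusted p = 7.62e-05 and 0.00403), and the second was lost when complete pairs were blocked by mouse (adjusted p = 0.063). The EMCN- level rests on the library of mouse 4, at 2.58 CPM, without which the second difference was -4.77, and over the alternatives it ran from -4.77 to -2.15. Dhrs3 was lower in EMCN+ LT-HSCs by -1.31 ± 0.32 (adjusted p = 0.00114), a call lost with total-count scaling (-0.49, adjusted p = 0.174). Smaller calls for Rdh11, Rdh12 and Dhrs4 did not hold in every alternative, where their adjusted p reached 0.137, 0.119 and 0.124, and Dhrs4 changed sign with total-count scaling.

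Among genes of retinoid transport 2 of 11 could be tested. Fabp5, a fatty acid binding protein that also carries retinoic acid, was lower in EMCN+ LT-HSCs, at 25.0 ± 4.08 CPM (SD, n = 4) against 45.2 ± 1.55 CPM (n = 3), with 21.9 to 30.8 CPM in one fraction and 43.5 to 46.4 CPM in the other. Its difference was -0.85 ± 0.12 (log2, adjusted p = 0.00138 by edgeR), it was the lower in 3 of 3 mice, and all 21 alternatives called it. GMPs had 115 ± 4.77 CPM (n = 4), above both fractions. The carriers Crabp1 and Crabp2, which bind retinoic acid in many tissues, had at most 2 counts in any library.

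Of Rxrg and 13 partner receptors of RXR, 9 were tested. Between the fractions 0.771% of all tested genes were called higher and 1.19% lower. Thra, the thyroid hormone receptor alpha gene, was the 1 called higher in EMCN+ LT-HSCs, by 0.46 ± 0.12 (log2, adjusted p = 0.048 by edgeR), but 7 of 21 alternatives called it, with adjusted p from 0.0118 to 0.200, and the call was lost whenever any 1 of the 11 libraries was left out. Against GMPs 5 of the 9 were higher in each fraction and 0 lower, with medians of 0.62 and 0.46 (all genes 0.04 and 0.03). Of all tested genes, 31.9% and 28.3% were called higher on these sides and 29.4% and 24.4% lower. Vdr, the vitamin D receptor gene, was at 35.0 CPM in EMCN+ LT-HSCs, 24.4 CPM in EMCN- LT-HSCs and 3.69 CPM in GMPs. Its differences from GMPs were 3.26 ± 0.18 and 2.75 ± 0.19 (adjusted p = 2.67e-12 and 1.93e-10). Thrb, the second thyroid hormone receptor gene, was higher by 3.58 ± 0.32 and 3.00 ± 0.34, and Nr4a1, an orphan receptor that pairs with RXR, by 3.38 ± 0.55 and 3.15 ± 0.58.

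All 19 coregulators on the list were tested, and 0 were called between the fractions (median 0.07). Of all tested genes, 0.771% were called higher there and 1.19% lower. Against GMPs 13 were higher in EMCN+ and 11 in EMCN- LT-HSCs and 0 lower in either, with medians of 0.64 and 0.57 (all genes 0.04 and 0.03), where 31.9% and 28.3% of all tested genes were called higher and 29.4% and 24.4% lower. Nrip1, a corepressor induced by retinoic acid in other cells, was higher by 2.15 ± 0.13 and 2.33 ± 0.14 (adjusted p = 9.79e-12 and 1.29e-11 by edgeR). Crebbp, a histone acetyltransferase, was higher by 1.35 ± 0.11 and 1.08 ± 0.11. Between the fractions Crebbp differed by 0.27 ± 0.11 (log2, adjusted p = 0.274 by edgeR) and was not called. Blocked by mouse in complete pairs, Crebbp (adjusted p = 0.0341) was called higher in EMCN+ over EMCN- LT-HSCs, by 0.34 on the log2 scale. That fit, which called 908 of 13435 genes, was the 1 of 21 alternatives to call Crebbp. Over the alternatives its adjusted p reached 0.652.

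Genes known as targets of retinoic acid in other tissues were mostly silent, with 5 of 15 tested. Tgm2, a transglutaminase, was called higher in EMCN+ LT-HSCs, at 147 to 211 CPM against 95.9 to 130 CPM, by 0.66 ± 0.14 (log2, adjusted p = 0.015 by edgeR), higher in 3 of 3 mice. The call was lost without the EMCN- library of mouse 1 (adjusted p = 0.128), the EMCN- library of mouse 4 (0.0847) or the EMCN+ library of mouse 2 (0.0682), and with thinned libraries (0.0904). In GMPs Tgm2 was at 1.43 ± 0.501 CPM (SD, n = 4), and the differences were 6.86 ± 0.20 and 6.20 ± 0.21 (adjusted p = 2.45e-16 and 3.52e-15). Cd38, an NAD hydrolase, was higher by 4.23 ± 0.69 and 3.76 ± 0.74 (adjusted p = 1.98e-05 and 0.000208), or by 5.50 and 5.03 without the GMP library of mouse 1. Cebpe, a granulocytic transcription factor, was at 24.1 ± 2.66 CPM in GMPs against 0.167 ± 0.199 CPM in the EMCN+ and 0.105 ± 0.0909 CPM in the EMCN- fraction (adjusted p = 1.21e-11 and 4.71e-10). Of the 5 genes, 3 were higher and 2 lower in EMCN+ LT-HSCs than in GMPs, and 3 higher and 1 lower in EMCN- LT-HSCs, beside 31.9% higher and 29.4% lower, and 28.3% higher and 24.4% lower, of all tested genes. Dhrs3 stands in this list too.

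**Figure D4:**
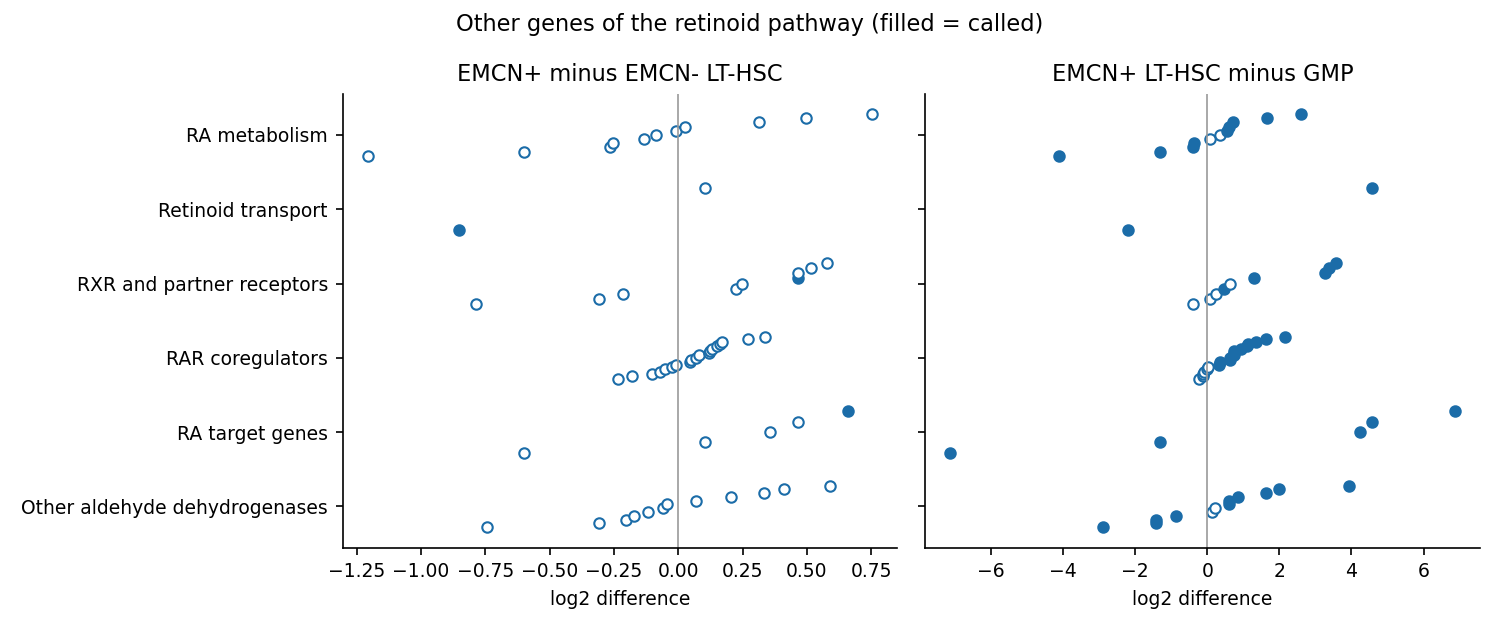
Log2 differences (horizontal axes, different ranges) of the tested genes in 6 lists of retinoid genes, for EMCN+ minus EMCN- LT-HSCs on the left and EMCN+ LT-HSCs minus GMPs on the right; each circle is a gene, filled where called. On the left the filled circles are Fabp5 at -0.85, Thra at 0.46 and Tgm2 at 0.66, and on the right the 19 coregulators hold 13 filled circles above 0 and 0 below.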

How the data were processed

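The deposited table holds an estimated count for each gene in 11 libraries. The authors' values were used as deposited, and the submitters' processing notes name cutadapt and Salmon. Their versions, the genome build, the annotation and the strand setting are not given in the sources used here. The labels name polyA RNA, while the protocol is a stranded total RNA kit for picogram input without a polyA step. The estimated counts were whole numbers and were rounded as a safeguard. Identifiers were matched to GENCODE M21 (54094 of 54347), which gave coordinates and exon lengths, and promoter windows came from RefSeq on GRCm38.p6.

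The filter on low counts (filterByExpr, at least 10) kept 14915 genes, which hold 99.7% of all counts. A single edgeR 4.0.16 fit (R 4.3.3) took in the 11 libraries, scaled by TMM, without a term for mouse; its quasi-likelihood step was robust, and p was adjusted by Benjamini-Hochberg at 0.05. Log2 CPM used a prior count of 2. Alternatives were other scalings and filters, DESeq2 1.42.0, limma-voom (limma 3.58.1), only the 2 groups compared, mouse as a block, each library left out, and thinning to the smallest total, which was chosen after seeing the data. The scripts were tested on simulated data.

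Libraries of a group came from separate mice and differed beyond sampling (chi-square per degree of freedom 8.86 to 37.8). The mouse number in the labels pairs libraries of one animal. Deviations from the group means correlated at 0.198 on average in same-mouse LT-HSC pairs (0.165 to 0.223, 3 pairs), at -0.0656 between mice (9 pairs) and at 0.0714 between LT-HSCs and GMPs of one mouse (7 pairs).

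The members and lists were chosen with earlier results of these data known, the rise of Cyp26b1 in EMCN+ LT-HSCs among them. Named genes were the 7 members, the called members of each list between the fractions (or up to 2 with the smallest p), up to 3 per direction with the largest change against GMPs at a mean of at least 1 CPM in the higher group, and the 3 genes most correlated with each member at a mean of at least 5 CPM. Some genes that the rule names are not reported here. Further genes given as checks were chosen after their values were seen. The sum of endothelial markers without Emcn and Vwf was chosen after seeing the data. Marker lists for LT-HSCs, GMPs, endothelium, stroma, megakaryocytes, erythroid cells, mature myeloid cells and lymphocytes were summed per library. Reads carried no molecular identifiers in the count table, so the limits a count of 0 allows cover counting error only.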

Additional observations from a re-analysis of the deposited data

Results flagged for a closer look

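In 12 groups of 4 libraries with values above 0 each gene's highest and lowest library was compared with its nearest neighbour, relative to the range of the group. For Rarg the EMCN+ library of mouse 2 stood apart at 13.7 CPM, with the other three at 11.1 to 11.5 CPM. For Rxrb the EMCN+ library of mouse 3 stood apart at 34.9 CPM, with the other three at 29.7 to 30.3 CPM. Chance flags about 1 in 20 groups, and 2 of 12 were flagged.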

How the results depend on the processing

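Over the 7 members and 3 comparisons, 412 of 441 alternative values kept the direction and the side of the threshold, 4 lost a call, 7 gained one and 18 changed sign. All 18 were for Rxrb, whose differences lie near 0. Between the fractions it was at -0.000713 in limma-voom, -2e-04 with a replicate block in all libraries, -0.00107 with only the 2 groups and -0.0579 with the block in complete pairs, and from -0.0917 to 0.106 with 1 library left out. Against GMPs it was at -0.006 (2 groups) and -0.00114 (block in complete pairs), from -0.0462 to 0.137 with 1 library left out, in EMCN+ cells, and at -0.0057 (block in complete pairs), from -0.124 to 0.127, in EMCN- cells. Dhrs4 turned to 0.425 (adjusted p = 0.0325) in EMCN+ LT-HSCs against GMPs with total-count scaling. The cause was not tested.

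The number of genes called between the fractions, 293, was 529 without a low-count filter, 451 in DESeq2 and 908 with the block in complete pairs, and ranged from 55 (without the EMCN- library of mouse 1) to 338 with 1 library left out. Without the EMCN+ library of mouse 2 or 4 it was 105 or 184, and without the EMCN- library of mouse 2 or 4 it was 194 or 191. With total-count scaling the share called higher was 76.3% in place of 39.2%, and against GMPs 82.7% in place of 52.0% in EMCN+ and 84.8% in place of 53.7% in EMCN- cells. The block changed no other call of a member than those given for Rarb, Aldh1a1 and Rarg.

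Depth limits the low genes: 3 counts were worth 0.209 to 0.705 CPM, and the EMCN- libraries gave 9 to 12 counts of Cyp26b1 and 11 to 14 of Rarb. The GMP zeros of both genes limit a level only roughly and do not show its absence.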

Other observations

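The other aldehyde dehydrogenases, taken from a list of their own, did not move together. Of 14 listed, 12 were tested, 0 were called between the LT-HSC fractions (median -0.05 on the log2 scale), and against GMPs 6 were higher and 4 lower in EMCN+ LT-HSCs and 4 higher and 4 lower in EMCN- LT-HSCs (medians 0.40 and 0.35, all genes 0.04 and 0.03). Of all tested genes 31.9% were higher and 29.4% lower in the first of these comparisons with GMPs and 28.3% and 24.4% in the second. Between the LT-HSC fractions 0.771% were higher and 1.19% lower. Aldh1l1, a folate enzyme, was at 22.8 CPM in EMCN+ LT-HSCs, 23.7 CPM in EMCN- LT-HSCs and 1.48 CPM in GMPs, with differences from GMPs of 3.93 ± 0.23 and 3.97 ± 0.24 (adjusted p = 5.91e-12 and 1.87e-11 by edgeR). Aldh7a1, of lysine breakdown, was higher by 2.00 ± 0.19 and 1.93 ± 0.20, and Aldh6a1, of valine breakdown, by 1.64 ± 0.18 and 1.23 ± 0.20. Aldh4a1, of proline breakdown, was lower by -1.43 ± 0.22 and -1.64 ± 0.25 (adjusted p = 7.07e-06 and 1.08e-05). The mitochondrial Aldh1b1 was lower by -1.43 ± 0.24 and -1.31 ± 0.27, and the second was at an adjusted p of 0.0656 with total-count scaling. Aldh3b1 was lower by -2.90 ± 0.69 and -2.16 ± 0.77, and the second was at 0.104 with that scaling and at 0.108 without the EMCN- library of mouse 1.

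Markers of other blood cells also differed between the populations. The summed level of 8 megakaryocyte markers was 55.8 to 66.0 CPM in EMCN+ LT-HSCs, 92.4 to 132 CPM in EMCN- LT-HSCs and 17.5 to 34.5 CPM in GMPs, and 2 of 5 tested, Pf4 and Itga2b, were called lower in the EMCN+ fraction. Between the fractions 1.19% of all tested genes were called lower and 0.771% higher. That of 9 mature myeloid markers was 4.95 to 8.60, 7.28 to 9.20 and 233 to 564 CPM in the same order, with Ly6g at 0 in every library. The summed level of stromal and bone markers was 16.4 to 37.4, 18.8 to 25.8 and 17.5 to 29.1 CPM. Erythroid markers summed to 15.9 to 19.7, 10.3 to 12.2 and 11.5 to 43.6 CPM, where 0 of 6 tested were called higher and 1, Car1, lower in EMCN+ over EMCN- LT-HSCs, and Hbb-bt took most of the EMCN+ sum (14.8 CPM against 5.82 CPM in EMCN- LT-HSCs). Lymphocyte markers summed to 9.97 to 14.4, 12.0 to 16.5 and 20.7 to 24.8 CPM, with Cd3e at 0 in every library. The part of any of these in the results on retinoic acid genes was not tested.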
